A study of Mus musculus with 11 samples.

Results

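Whole brains of mice null for β4, a subunit of nicotinic acetylcholine receptors, were compared with brains of wild-type mice. The genes described here are 10 that act in synaptic vesicle fusion and recycling: Vamp1, Syt1, Syt3, Syt11, Cplx1, Nsf, Napb, Syp, Stx1a and Dnm1. All probe sets annotated with exactly 1 of these symbols were taken. They number 14 for the 10 genes, of 8251 genes named on the array, and 4 of the genes (Vamp1, Syt3, Napb and Dnm1) have 2 probe sets each. The 10 genes were picked from a longer vesicle list because their brightest probe sets differed by genotype on these same arrays. Their genotype differences are therefore a description, and no count over them supports a change of vesicle genes.

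The 11 mice were untreated C57BL/6J mice, 6 to 9 weeks old, with 1 array per mouse. The 5 null mice were 2 males (null 1 and null 2, 9 weeks old) and 3 females (null 3 to null 5, 7 or 8 weeks old), all with B4 animal numbers. The 6 wild-type mice were 4 males and 2 females. Of these, 3 had B4 numbers (males 1 and 2 and female 3) and 3 had LT numbers (males 4 and 6 and female 5, all 6 weeks old). How the null allele was made is not given in the sources used here. No probe set is named for Chrnb4, the gene of the β4 subunit, so the genotype labels were not checked on the arrays.

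A nerve terminal releases transmitter when SNARE proteins on the vesicle and on the plasma membrane zip together and pull the membranes into fusion. Synaptotagmins sense calcium, complexins clamp and then aid the SNAREs, and the ATPase NSF with its SNAP adaptors pulls the spent complexes apart so that they can be used again. Vesicle membrane is then retrieved by endocytosis, in which dynamin cuts the neck of the budding vesicle. Receptors that hold the β4 subunit are found mainly in the medial habenula, its target in the midbrain and autonomic ganglia, and few of the brain's cells make them.

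The arrays of both male null brains stood apart from the other 9. Their Gapdh control ratio, the signal at the 3′ end of the transcript over that at the 5′ end, was 0.859 and 0.798, against 2.19 to 3.58 in female null brains and 3.57 to 5.92 in wild-type brains. Their median signal was 58.3 and 56.3, against 43.6 to 49.75 on the other arrays, although the trimmed mean was 150.1 on all 11. Of 7453 tested probe sets, 37.2% had both male null brains outside the range of the other 9, 20.7% above and 16.5% below. Markers of the tissue were present: 10 neuronal markers summed to 10980 and 11075 in male null brains, 8329 to 8525 in female null brains and 6246 to 9289 in wild-type brains, and both male null brains were above the other 9 for 7 of the 10 and below them for 1. Sums of 6 microglial markers were 1515 and 1740 in male null, 874 to 962 in female null and 765 to 1148 in wild-type brains, and 4 of the 6 had both male null brains above the other 9 and 0 below. Oligodendrocyte sums, 6526 and 6995 in male null brains, lay inside the wild-type range of 5435 to 8100. Endothelial sums, 550 and 614, also lay inside theirs of 348 to 624. Astrocyte sums were 5343 and 6206, against 3784 to 5408 in wild-type brains. Both male null brains were above the other 9 for 1 oligodendrocyte, 0 endothelial and 2 astrocyte markers, and below them for 1, 0 and 0. No marker of any of the lists was at 0 on all arrays. The signal filter was a stricter measure. All neuronal, astrocyte and endothelial markers on the array passed it, with 5 of 6 oligodendrocyte and 5 of 6 microglial markers. The part of these differences in the results below was not tested, apart from the fits without the male null brains and with the Gapdh ratio. In whole-brain RNA, fewer cells of a type and less RNA per cell cannot be told apart.

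Promoter windows of all 10 genes were found in RefSeq (build GRCm38.p6), and 4 are printed because they belong to the genes with the largest positive differences (Syt1, Syt11 and Vamp1) and to Dnm1, which differed in the opposite direction. Each holds the 250 bases before the annotated start farthest upstream, 5′ to 3′ along the gene, with matches in capitals to the GC box GGGCGG or the CCAAT box, on either strand.
Syt1 chr10:109010976-109011225 (minus strand): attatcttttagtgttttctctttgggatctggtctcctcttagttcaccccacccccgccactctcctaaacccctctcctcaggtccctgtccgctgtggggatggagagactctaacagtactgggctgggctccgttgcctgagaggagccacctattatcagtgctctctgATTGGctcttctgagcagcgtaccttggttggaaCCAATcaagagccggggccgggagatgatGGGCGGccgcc
Syt11 chr3:88772600-88772849 (minus strand): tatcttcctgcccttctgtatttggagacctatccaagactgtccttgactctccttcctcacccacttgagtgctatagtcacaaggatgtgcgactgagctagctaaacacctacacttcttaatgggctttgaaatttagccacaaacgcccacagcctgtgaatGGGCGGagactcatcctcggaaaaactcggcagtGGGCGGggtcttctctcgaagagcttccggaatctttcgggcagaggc
Vamp1 chr6:125215331-125215580 (plus strand): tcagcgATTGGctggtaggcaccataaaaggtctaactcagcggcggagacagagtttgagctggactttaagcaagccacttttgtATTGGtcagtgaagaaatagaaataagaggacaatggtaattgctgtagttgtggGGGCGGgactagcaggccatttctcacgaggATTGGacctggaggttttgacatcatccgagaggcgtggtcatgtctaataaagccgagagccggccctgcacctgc
Dnm1 chr2:32353330-32353579 (minus strand): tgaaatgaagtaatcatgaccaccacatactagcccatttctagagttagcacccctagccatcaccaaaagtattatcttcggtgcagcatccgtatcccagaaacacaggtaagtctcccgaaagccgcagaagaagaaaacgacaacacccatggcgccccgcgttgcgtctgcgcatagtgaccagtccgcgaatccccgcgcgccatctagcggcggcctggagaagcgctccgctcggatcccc
Of the 10 genes, 6 had a GC box in the window, against 32.7% of 32851 windows of the same length, and 2 had a CCAAT box (Syt1 with 2 matches and Vamp1 with 3), against 33.8%. The median GC content was 58.8% over the windows of the 10 genes and 52.4% over all windows. Members were counted through the window of their farthest upstream start, and the 32851 windows without such a choice. Dnm1, Napb, Nsf and Syt3 had neither motif. None of the 10 windows held TATAAA, which 12.4% of all windows hold, or the cyclic AMP element TGACGTCA, which 1.55% hold. No 2 matches overlapped in the printed windows. The genes that differed in the same direction thus shared no motif of these 4 in every window, and the matches are letters only.

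Over all 11 brains, the log2 difference of null minus wild-type with sex in the model was positive for 9 of the 10 genes and negative for Dnm1, each through its brightest probe set. None passed the threshold (limma adjusted p from 0.0773 to 0.147 over all tested probe sets), and 2 of the 7453 tested probe sets did (0.0268%). All 10 had an unadjusted p under 0.05, 9 with a higher and 1 with a lower signal in null brains, where 23.1% of tested probe sets had one, 13.4% higher and 9.69% lower. The choice of the genes had fixed that share. Their median difference was 0.91, against 0.03 over all tested probe sets. Without wild-type 5 the number of member probe sets past the threshold was 10 of 13, where 11.7% of all tested probe sets passed. Without wild-type 3 it was 4, against 2.67% of all, and without null 5 it was 1 (Syt1), against 0.121%.

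The separation lay in the male null brains. In all 14 probe sets both of them were outside the range of the other 9 brains, above it in 11 and below it in 3, where 37.2% of tested probe sets had this pattern. The median difference over the 10 genes was 0.02 in females and 1.72 in males, against 0.02 and 0.05 over all tested probe sets. The interaction, which is the null minus wild-type difference of females less that of males, passed the threshold for 10 of the 13 tested member probe sets (limma adjusted p), against 15.9% of all tested probe sets. Of the 10, 9 were negative and 1, Dnm1, was positive, against 8.68% and 7.25% of all tested probe sets. These calls rest on 2 male null brains and were made on the arrays from which the genes were picked. Leaving out 1 brain at a time left between 5 and 10 of them, with the 5 without null 2.

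**Figure D1:**
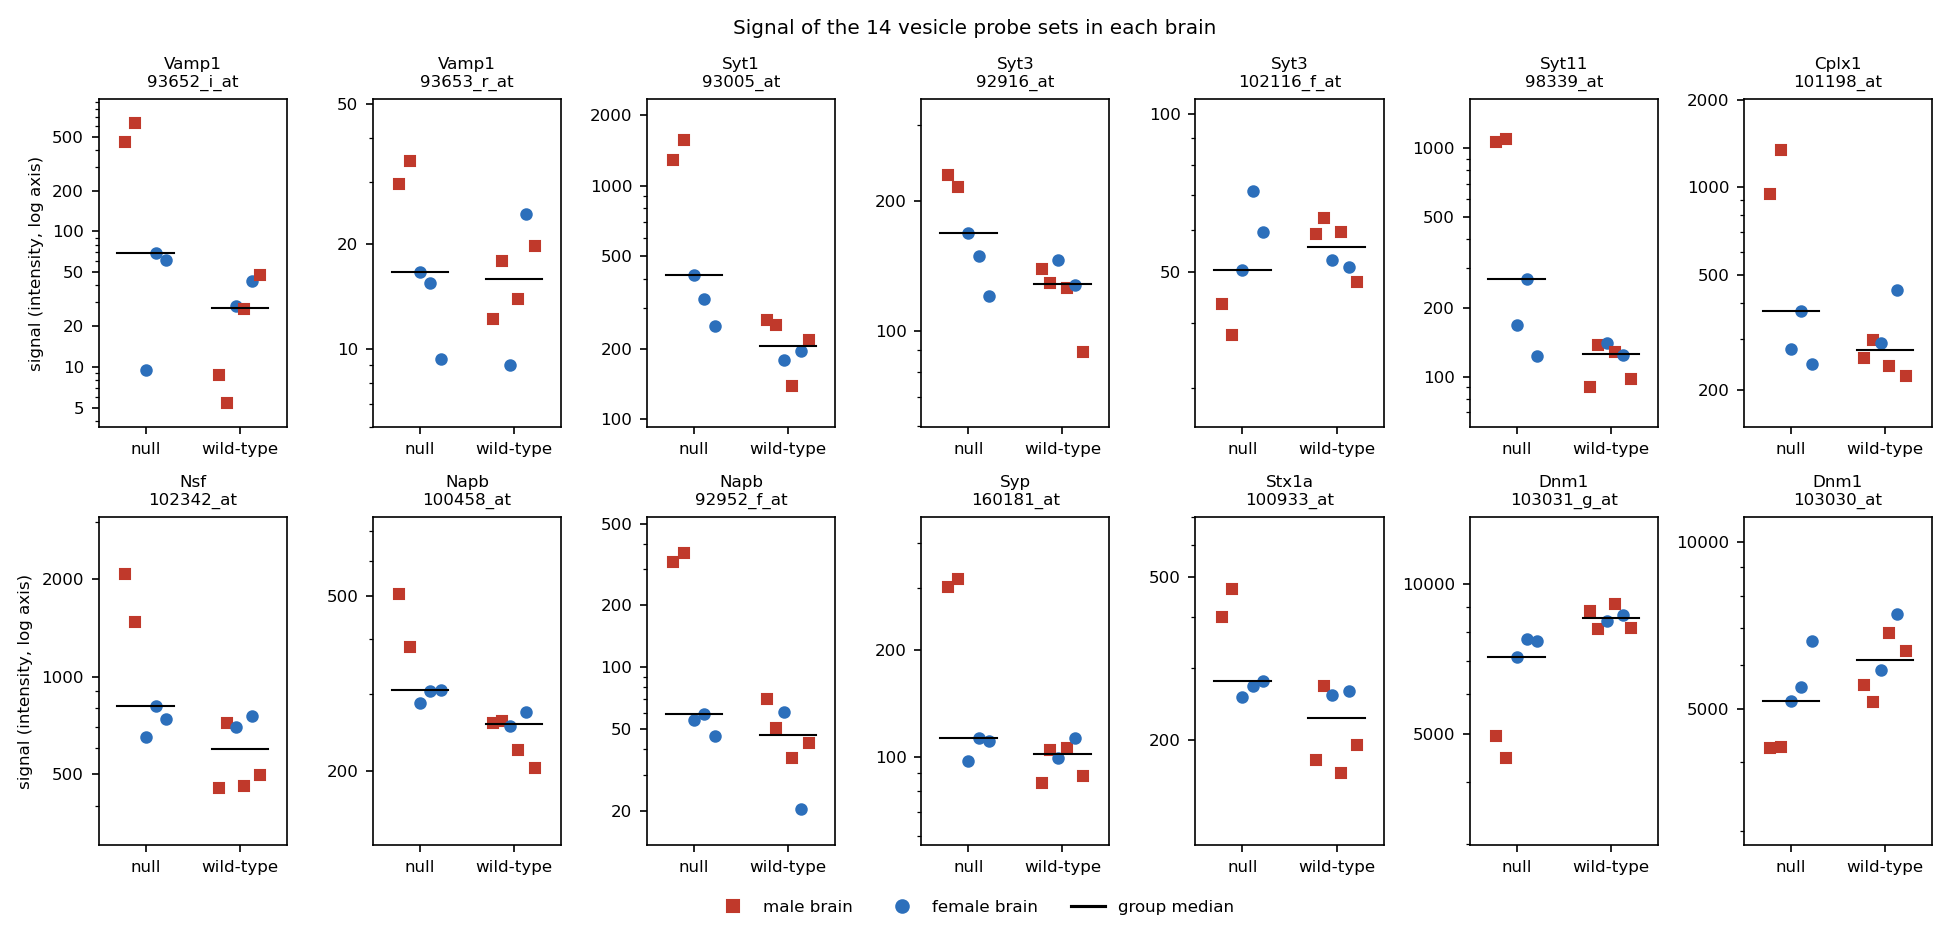
Signal (intensity, log axis) of each of the 14 probe sets in each brain, with null brains left and wild-type brains right in each panel, squares for males, circles for females and a line at each group's median. Both male null brains lie above the other 9 in 11 panels and below them in 3, while female null and wild-type brains overlap in most.

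Among the SNARE proteins, Vamp1 encodes a vesicle synaptobrevin of the spinal cord, brain stem and some forebrain neurons, and Stx1a a syntaxin of the plasma membrane. The Vamp1 probe set 93652_i_at had signals of 455.8 and 631.2 in male null brains, 9.6, 69.1 and 61.7 in female null brains, and a lowest, median and highest signal of 5.4, 27.4 and 47.5 in wild-type brains. Male null brains stood far above all others, null 4 and null 5 lay just above the wild-type range, and null 3 lay inside it. The log2 difference was -0.01 in females and 5.10 in males, the widest gap between the sexes among the 10 genes (interaction -5.11, SE 1.24, limma adjusted p = 0.0159). The lowest wild-type signals, 8.8 and 5.4, belonged to males 1 and 2, so the size of the male difference rests on values close to the floor of 3.1. Without wild-type 5 the interaction was -4.80 (limma adjusted p = 0.0751), and without null 2 it was -4.87 (limma adjusted p = 0.0753). With no filter on dim probe sets the adjusted p was 0.0735. The probe set passed the signal filter only with both male null brains included. It was thus tested only through the brains in which it was high, and its call is a description.

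The dimmer Vamp1 probe set 93653_r_at lay under the signal filter and was not tested. It read 29.6 and 34.4 in male null brains, 16.6, 15.4 and 9.4 in female null brains, and 9.0 to 24.2 in wild-type brains. Male null brains were again the highest, but by 2.04-fold over male wild-type brains, against 34.2-fold for 93652_i_at. Suffixes mark how a probe set was designed: i for one with fewer probes than usual, r for one chosen with relaxed rules, f for one whose probes can bind related sequences and g for one shared by a group of transcripts.

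Stx1a (100933_at) had signals of 398.8 and 468.0 in male null brains, 254.8, 271.2 and 279.5 in female null brains, and 166.4, 226 and 271.2 as lowest, median and highest in wild-type brains. Null 5 lay above the highest wild-type brain and the other 2 female null brains inside the wild-type range, whose female brains were at 257.9 and 264.4. The difference was 0.04 in females and 1.12 in males (interaction -1.08, SE 0.27, limma adjusted p = 0.0174). Without wild-type 5 the interaction was -1.06 (limma adjusted p = 0.0673), without null 2 it was -0.96 (limma adjusted p = 0.0917), with median centring -0.86 (limma adjusted p = 0.0706) and with B4 numbers only -0.92 (limma adjusted p = 0.0895). The SNARE genes Vamp2 and Snap25, named after their values were seen, did not share the pattern. For Vamp2 the difference was -0.16 in females and 0.24 in males (interaction limma adjusted p = 0.185). For Snap25 it was 0.15 in females and -0.31 in males (interaction limma adjusted p = 0.148). The synaptobrevin Vamp2, through the brighter of its 2 probe sets (98926_at), averaged 2076 ± 233 in null brains and 1981 ± 241 in wild-type brains (SD, n = 5 and 6; limma adjusted p = 0.822), and the membrane SNARE Snap25 (100047_at) averaged 5704 ± 738 in null brains and 6025 ± 830 in wild-type brains (SD, n = 5 and 6; limma adjusted p = 0.688).

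Among the calcium sensors, Syt1 encodes the sensor of fast release in forebrain neurons. Its probe set 93005_at had signals of 1291 and 1567 in male null brains, 414.6, 326.6 and 251.3 in female null brains, and 138.8, 207 and 265.5 as lowest, median and highest in wild-type brains. Syt1 was the gene whose female null brains stood highest against their own sex: all 3 were above the female wild-type brains at 180.3 and 196.1, a pattern seen in 11.9% of tested probe sets. The female null brain at 251.3 was nevertheless under the male wild-type brains at 265.5 and 252.7. The log2 difference was 0.79 in females and 2.74 in males (interaction -1.96, SE 0.37, limma adjusted p = 0.0049). Over both sexes it was 1.82 (SE 0.32), the smallest adjusted p of the 10 genes (limma, 0.0773). Within animals with B4 numbers it was 1.77 and passed (limma adjusted p = 0.0356), as did 0.389% of all tested probe sets. That subset holds both male null brains, and Syt1 was picked by genotype on these arrays, so the pass is no separate support. With the number letters as a block the difference was 1.65 (limma adjusted p = 0.13), and with age as a covariate 1.49 (limma adjusted p = 0.375).

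Syt11, a synaptotagmin whose protein does not bind calcium and which is known for roles in membrane retrieval, had signals through 98339_at of 1059 and 1094 in male null brains, 168.5, 267.5 and 123.9 in female null brains, and 90.3, 126 and 140.5 as lowest, median and highest in wild-type brains. The male null brains differed little from each other and were 9.63-fold above male wild-type brains. The female null brains at 168.5 and 267.5 also stood above every wild-type brain, whereas null 5 lay among them. The difference was 0.43 in females and 3.27 in males (interaction -2.84, SE 0.38, limma adjusted p = 0.00099).

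Syt3, a synaptotagmin with high calcium affinity, gave opposite answers through its 2 probe sets. Through 92916_at the signals were 230.2 and 215.8 in male null brains, 168.4, 149.2 and 120.1 in female null brains, and 89.4, 128 and 146.0 as lowest, median and highest in wild-type brains. Through the dimmer 102116_f_at they were 43.5 and 37.9 in male null brains, 50.4, 71.3 and 59.5 in female null brains, and 47.8, 55.9 and 63.5 in wild-type brains. Male null brains were the highest of all through 92916_at and the lowest of all through 102116_f_at. The differences over both sexes were 0.51 (SE 0.19, limma adjusted p = 0.145) and -0.16 (SE 0.20, limma adjusted p = 0.64), and neither interaction passed (limma adjusted p = 0.0793 and 0.188). With the number letters as a block, that of 92916_at was -0.82 and passed (limma adjusted p = 0.0477). The probe set 102116_f_at carries the f suffix, so its probes can bind related sequences.

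Cplx1 encodes complexin 1, which binds the assembled SNARE complex. Its probe set 101198_at had signals of 945.6 and 1342 in male null brains, 277.5, 375.4 and 245.4 in female null brains, and 223.6, 275 and 442.8 as lowest, median and highest in wild-type brains. The highest wild-type brain was wild-type 5, a female, above all female null brains. The difference was -0.29 in females and 2.14 in males, and its interaction had the smallest adjusted p among the members (-2.43, SE 0.32, limma adjusted p = 0.00089). Over both sexes the difference was 0.99 (SE 0.37, limma adjusted p = 0.147), 0.59 without null 2 and 1.38 without wild-type 5 (limma adjusted p = 0.029). Cplx2, the other main brain complexin, had a difference of 0.16 (SE 0.16, limma adjusted p = 0.562), with signals of 261.2 and 266.9 in male null brains inside the wild-type range of 133.9 to 303.6.

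For the machinery that takes SNARE complexes apart, the ATPase Nsf (102342_at) had signals of 2078 and 1470 in male null brains, 649.0, 810.0 and 739.1 in female null brains, and 452.4, 599 and 756.1 as lowest, median and highest in wild-type brains. Female null brains lay on both sides of the female wild-type brains at 701.5 and 756.1. Male wild-type 2 was also in that range at 718.9, while the other 3 male wild-type brains were at 452.4, 458.1 and 496.1. The difference was 0.0028 in females and 1.75 in males (interaction -1.74, SE 0.29, limma adjusted p = 0.0025). Over both sexes it was 0.92 (SE 0.28, limma adjusted p = 0.109), and 0.60 without null 1.

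Napb encodes β-SNAP, the brain adaptor that brings NSF to the SNARE complex. Its brighter probe set 100458_at had signals of 503.6 and 383.2 in male null brains, 286.2, 304.6 and 306.1 in female null brains, and 203.9, 256 and 273.2 as lowest, median and highest in wild-type brains. It was the only tested member probe set with all 5 null brains above all 6 wild-type brains, a pattern of 0.590% of tested probe sets (1.09% with such a separation in either direction). The dimmer 92952_f_at had 326.7 and 359.8 in male null brains, 55.6, 59.4 and 46.5 in female null brains, and 20.5, 47.0 and 70.3 in wild-type brains, and there the female null brains lay inside the wild-type range. Both probe sets were higher in male null brains, by 1.87-fold and 7.05-fold over male wild-type brains. Their differences over both sexes were 0.56 (SE 0.16, limma adjusted p = 0.0964) and 1.77 (SE 0.40, limma adjusted p = 0.0852). Their interactions, -0.72 and -2.22, both passed, 100458_at narrowly (limma adjusted p = 0.0483 and 0.0159). The 100458_at call was lost without any 1 of 9 of the brains, with adjusted p between 0.0536 (without null 2) and 0.226 (without null 1), and held only without wild-type 1 or wild-type 2. It was also lost with median centring (-0.50, limma adjusted p = 0.162), with B4 numbers only (-0.53, limma adjusted p = 0.22), under quantile normalization, with no filter and with no variance trend (limma adjusted p = 0.0518, 0.0595 and 0.0717). The 92952_f_at call was lost without wild-type 3 (-1.43, limma adjusted p = 0.0513), null 1 (-2.29, 0.0529) or null 2 (-2.15, 0.0748), and with no filter (0.0592).

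Syp encodes synaptophysin, an abundant membrane protein of the vesicle that binds synaptobrevin. Its probe set 160181_at had signals of 301.7 and 316.9 in male null brains, 97.2, 113.2 and 110.7 in female null brains, and 84.6, 102 and 113.4 as lowest, median and highest in wild-type brains. The 9 brains outside the male null pair all lay between 84.6 and 113.4, and the male null pair was 3.24-fold above male wild-type brains. The difference was 0.0085 in females and 1.69 in males (interaction -1.69, SE 0.25, limma adjusted p = 0.0015). Its difference over both sexes was 0.90 (SE 0.26, limma adjusted p = 0.104).

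Dnm1 encodes dynamin 1, the neuronal GTPase of vesicle scission, and was the 1 gene of the 10 with a lower signal in null brains. Through 103031_g_at the signals were 4932 and 4465 in male null brains, 7136, 7743 and 7682 in female null brains, and 8110, 8547 and 9118 as lowest, median and highest in wild-type brains. Every null brain lay under the lowest wild-type brain, a pattern of 0.496% of tested probe sets. The female null brains were also below both female wild-type brains, as in 8.76% of tested probe sets and in no other member. Through 103030_at they were 4244 and 4254 in male null brains, 5149, 5463 and 6635 in female null brains, and 5132, 6112 and 7410 in wild-type brains, so there the female null brains overlapped with wild-type brains. The differences over both sexes were -0.54 (SE 0.13, limma adjusted p = 0.0852) and -0.35 (SE 0.13, limma adjusted p = 0.14). For 103031_g_at the difference was -0.19 in females and -0.86 in males (interaction 0.68, SE 0.15, limma adjusted p = 0.0104). It was 0.61 without null 2 (limma adjusted p = 0.0549) and 0.31 under quantile normalization (limma adjusted p = 0.088), and neither passed. For 103030_at it was -0.21 in females and -0.48 in males (interaction 0.27, SE 0.22, limma adjusted p = 0.426).

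**Figure D2:**
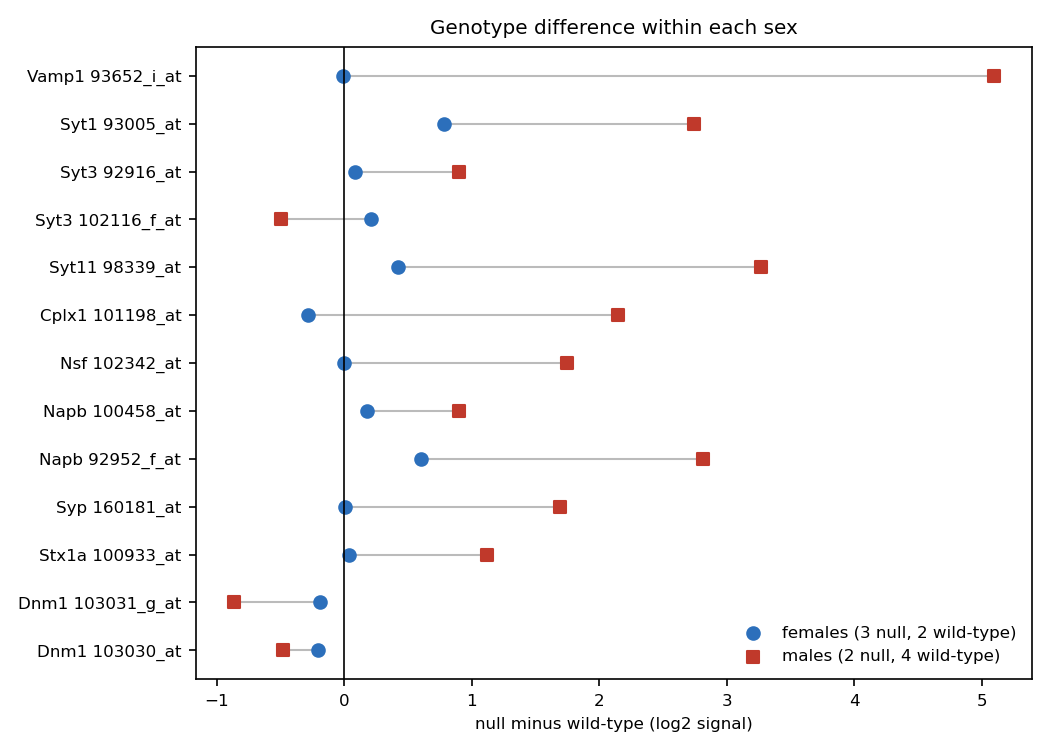
Difference of null minus wild-type in log2 signal for each tested probe set, with circles for females (3 null and 2 wild-type brains) and squares for males (2 null and 4 wild-type brains). Female values lie between -0.29 and 0.79, while male values lie between -0.86 and 5.10.

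The probe sets of a gene agreed in direction for Vamp1, Napb and Dnm1 and disagreed for Syt3. Over the 9 brains without the male null pair, the Pearson correlation of log2 signal between the 2 probe sets of a gene was 0.49 for Dnm1, 0.30 for Syt3, 0.16 for Napb and -0.07 for Vamp1. Outside the male null brains the probe sets of Napb and of Vamp1 thus shared little of their variation, though they carry the same gene symbol. Correlations over all 11 brains are not given here, because the 2 male null brains form a cluster of their own.

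Among different genes, the 36 pairs that leave out Dnm1 had a median correlation of 0.49 over these 9 brains (lowest -0.36, highest 0.97), and 33 of them were positive. The highest was that of Nsf with Stx1a. The 9 pairs with Dnm1 ran from -0.84 with Syt1 to -0.01 with Vamp1 and with Cplx1, with a median of -0.52. The signals share the scaling of each array, and these values describe 9 brains of both genotypes and sexes. The genes had been picked by genotype on these arrays, and pairs of other genes were not examined.

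Male mice with B4 numbers allow values to be set side by side at the same sex and number letters, null 1 and null 2 (9 weeks) beside wild-type 1 (9 weeks) and wild-type 2 (8 weeks). Syt11 had 1059 and 1094 in the null and 90.3 and 137.6 in the wild-type males. Syp had 301.7 and 316.9 in the null and 84.6 and 104.9 in the wild-type males. Dnm1 (103031_g_at) had 4932 and 4465 in the null and 8816 and 8110 in the wild-type males. In the members these 4 brains were thus separated at the same sex and number letters and near the same age. This was already given, because both male null brains lay outside the other 9 in all member probe sets. Both male null brains lay outside the other 9 in 37.2% of all tested probe sets. The share in which these 4 brains were separated from each other can only be as large or larger, and was not counted. The Gapdh control ratios of these arrays also differed, at 0.859 and 0.798 in the null and 4.35 and 3.87 in the wild-type males. With animals of B4 numbers alone, 5 null and 3 wild-type, the genotype difference was 2.01 for Syt11, 1.02 for Syp and -0.56 for Dnm1 (103031_g_at), with limma adjusted p = 0.0808, 0.0878 and 0.0888.

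**Figure D3:**
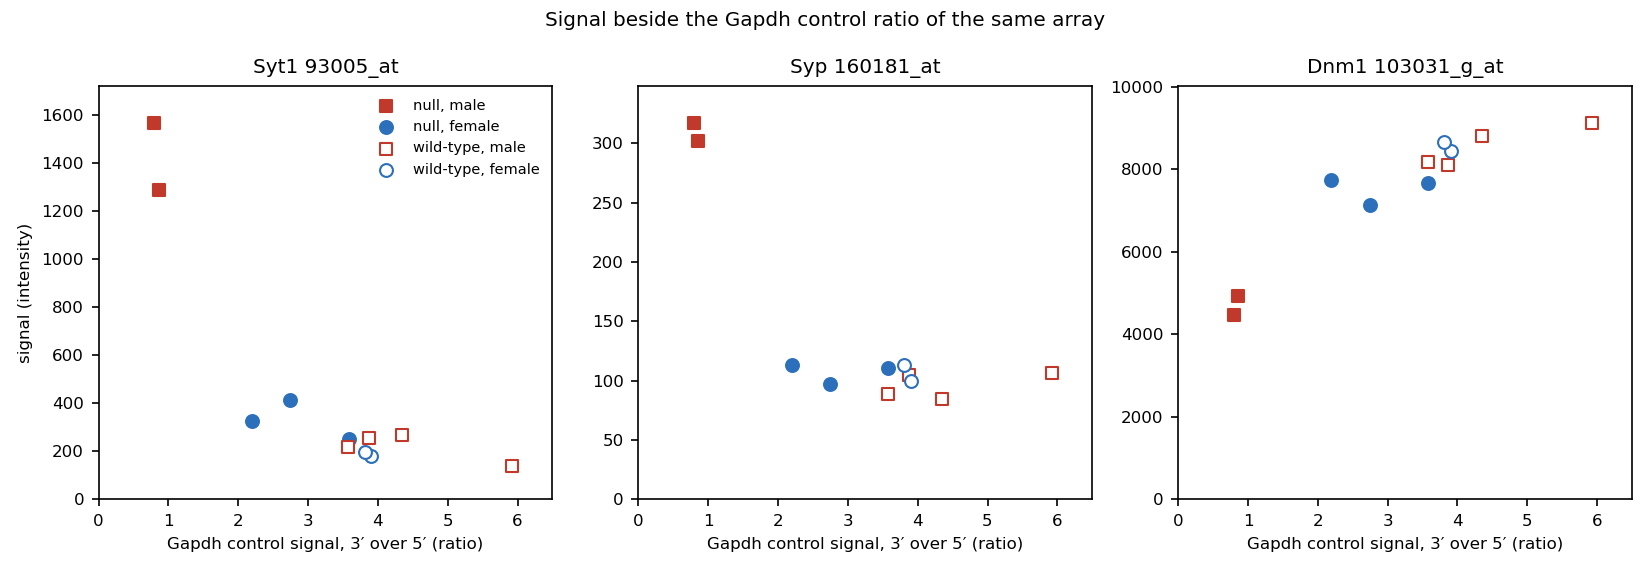
Signal of Syt1, Syp and Dnm1 (intensity, linear axis from 0) against the ratio of 3′ to 5′ Gapdh control signal on the same array, filled for null and open for wild-type brains, squares for males and circles for females. The 2 male null brains, with ratios of 0.859 and 0.798, are the highest for Syt1 and Syp and the lowest for Dnm1.

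The Gapdh control ratio was lowest on the arrays of both male null brains, in which most members were highest and Dnm1 was lowest. Without both male null brains, no member probe set passed for genotype (limma, lowest adjusted p = 0.999, and 1 had an unadjusted p under 0.05), and of all tested probe sets 0 passed and 3.53% had an unadjusted p under 0.05. The differences were then 0.79 for Syt1, 0.43 for Syt11, 0.18 for Napb (100458_at), 0.08 for Syt3 (92916_at), -0.19 for Dnm1 (103031_g_at) and -0.29 for Cplx1. Through the dimmer probe sets they were 0.60 for Napb (92952_f_at), 0.21 for Syt3 (102116_f_at) and -0.21 for Dnm1 (103030_at). Nsf, Syp and Stx1a had 0.0028, 0.0085 and 0.04, and Vamp1 fell under the signal filter. With the Gapdh ratio as a covariate none passed for genotype (limma, lowest adjusted p = 0.994, and 1 had an unadjusted p under 0.05) or for the interaction (lowest adjusted p = 0.47, and 1 had an unadjusted p under 0.05). Over all tested probe sets 0 passed in both, and 4.66% and 8.84% had an unadjusted p under 0.05. The interactions themselves changed unevenly: that of Vamp1 was then -5.47, that of Syp -1.89 and that of Napb (100458_at) -0.81, slightly larger than without the covariate, while that of Syt11 was -1.84, that of Cplx1 -1.52, that of Nsf -1.20 and that of Syt1 -0.30. The genotype difference of Syt1 was then 0.35, that of Syt11 0.01, that of Vamp1 -0.44 and that of Dnm1 (103031_g_at) -0.08. Both male null brains had ratios under those of all other arrays, so genotype in males and the state of these 2 arrays cannot be told apart.

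**Figure D4:**
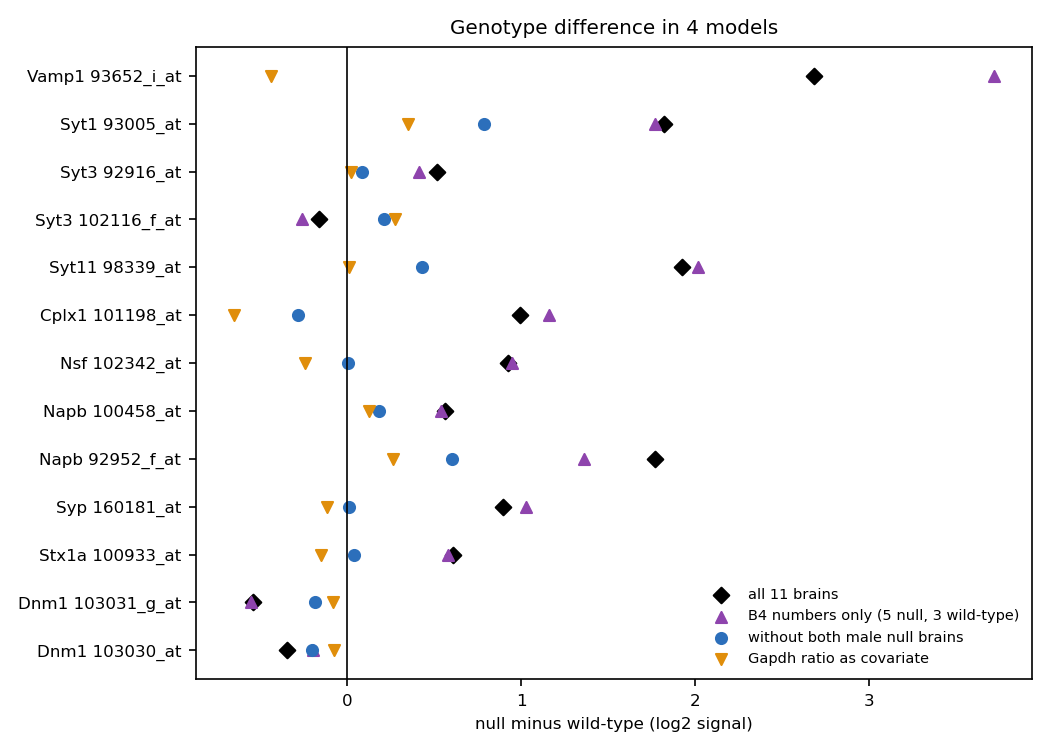
Genotype difference (null minus wild-type, log2 signal) of each tested probe set in 4 models: all 11 brains with sex (diamonds), B4 numbers only (upward triangles), without both male null brains (circles, none for Vamp1) and with the Gapdh ratio as covariate (downward triangles). The diamonds and upward triangles lie well away from 0 for most probe sets, and the circles and downward triangles lie nearer 0 for most. Among the circles, Syt1 is at 0.79, Napb (92952_f_at) at 0.60 and Syt11 at 0.43. Among the downward triangles, Cplx1 is at -0.65, Vamp1 at -0.44 and Syt1 at 0.35.

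Sex differences, female minus male with genotype in the model, ran from -1.51 to 0.32 over the 13 tested member probe sets, and none passed (limma, lowest adjusted p = 0.261, and 6 had an unadjusted p under 0.05). Over all tested probe sets 0 passed (0.00%) and 12.4% had an unadjusted p under 0.05. The median over the 10 genes was -0.49, and 0.19 without both male null brains. Of the 13, 10 were lower and 3 higher in females.

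Other genes of vesicle release and retrieval were described in the same way. Of 88 such genes on a list written with earlier results known, 57 were on the array and 50 passed the signal filter, and 0 passed for genotype (limma). The unadjusted p was under 0.05 for 11 genes higher and 6 genes lower in null than in wild-type brains, against 13.4% and 9.69% of all tested probe sets. Their median difference was 0.05, with 0.02 in females and 0.18 in males. The interaction passed for 11 of the 50, 6 negative and 5 positive, beside 15.9% of all tested probe sets. Both male null brains were above the other 9 for 12 and below them for 11, against 20.7% and 16.5% of all tested probe sets. By role, the median difference was -0.08 over 22 tested genes of the fusion machinery, 0.11 over 6 of other vesicle proteins and 0.16 over 22 of recycling. In these lists both male null brains were above the other 9 for 3, 2 and 7 genes and below them for 7, 1 and 3.

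The 5 of these genes with the smallest p, none past the threshold, were Ap2b1, Sh3gl2, Sh3gl1, Sypl and Dnajc5 (limma adjusted p from 0.0852 to 0.104). Ap2b1, a subunit of the clathrin adaptor AP-2, averaged 111 ± 92.6 in null brains and 38.2 ± 13.1 in wild-type brains (SD, n = 5 and 6), with log2 differences of 0.41 in females and 2.48 in males. Dnajc5, the vesicle co-chaperone cysteine string protein, averaged 174 ± 134 in null brains and 70.0 ± 13.4 in wild-type brains (1.22). For both, the spread in null brains came from the male null pair, at 211.1 and 214.4 for Ap2b1 and 311.9 and 326.7 for Dnajc5, with female null brains at 41.0 to 47.4 and 55.6 to 104.6. Sh3gl2, endophilin A1, which bends membrane during endocytosis, averaged 175 ± 56.3 in null brains and 115 ± 15.4 in wild-type brains (0.67). Its relative Sh3gl1, endophilin A2, went the opposite way, at 146 ± 11.6 in null brains and 208 ± 44.8 in wild-type brains (-0.55). Sypl, a widely expressed relative of synaptophysin, averaged 350 ± 67.7 in null brains and 478 ± 112 in wild-type brains (-0.54).

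For each member the gene outside the 10 with the most similar pattern was sought by Pearson correlation of log2 signal over the 11 brains. The pairs were Vamp1 with Btf3l4, Syt1 with Fam32a, Syt3 with Pef1, Syt11 with the translation factor Eef2, Cplx1 with Fdps, an enzyme of isoprenoid synthesis, Nsf with Pdlim7, Napb with Plrg1, Syp with the threonyl-tRNA synthetase Tars, Stx1a with the lysosomal protease Ctsd, and Dnm1 with Llgl1. The correlations were 0.95 to 0.99, and over the 9 brains without the male null pair 0.73 (Dnm1 with Llgl1) to 0.98 (Stx1a with Ctsd). A search over 11 brains favours genes in which the male null pair stands apart. The correlations over 11 brains are therefore only the measure used to choose these genes. The 9 brains are part of the 11 searched, so the correlations over them are not independent of that choice. Ctsd, for example, had 1238 and 1242 in male null brains and 330.0 to 657.2 in the other 9.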

How the data were processed

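Messenger RNA of 11 mouse brains had been measured on 1-colour arrays. The deposited intensity values, linear and 1 for each probe set on each array, were made by the authors with MAS5, which summarises the probes of a set and scales the array, per the submitters' processing notes. No version or setting of it is given in the sources used here. Of 12488 probe sets, 66 controls were left out. Intensities under the 10th percentile (3.1) were raised to it, log2 was taken, and probe sets under the 40th percentile of mean log2 signal (4.69, a signal of 25.8) were not tested, which left 7453. No member value lay at the floor. The fits used limma 3.58.1 in R 4.3.3 (lmFit, eBayes with trend, Benjamini-Hochberg over all tested probe sets, threshold 0.05): null minus wild-type with sex, female minus male with genotype, and their interaction as the female minus the male difference. Values given as passing are limma adjusted p-values. Fits were tested on simulated data with independent noise for each probe set. No simulated array stood apart as a whole, so the simulation does not cover the state of the male null arrays. The number of arrays limits the precision, and the labels give no separate litters or cultures beyond the mice. The probe set with the highest mean log2 signal stood for a gene. The members and lists were chosen with earlier results of these data known. All member probe sets were named, and from the other vesicle genes the 5 with the smallest p. Tissue markers were summed through each gene's brightest probe set. Promoter sequences came from RefSeq. Alternatives were other scalings, floors, filters, variance models and covariates, subsets of mice and leaving out each mouse.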

Additional observations from a re-analysis of the deposited data

Results flagged for a closer look

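The null minus wild-type difference of females less that of males passed the threshold (limma adjusted p) for 10 member probe sets. The log2 values were -5.11 for Vamp1 (93652_i_at), -1.96 for Syt1, -2.84 for Syt11, -2.43 for Cplx1, -1.74 for Nsf, -0.72 for Napb (100458_at), -2.22 for Napb (92952_f_at), -1.69 for Syp, -1.08 for Stx1a and 0.68 for Dnm1 (103031_g_at). In each, both male null brains lay outside the other 9, and their Gapdh control ratios were 0.859 and 0.798. Vamp1 (93652_i_at) passed the signal filter only with both of these brains included. Syt1, Syt11, Cplx1, Nsf and Syp kept the call without each mouse in turn and under every alternative run except the Gapdh covariate. Each of these fits held a male null brain or both, since the interaction cannot be fitted with neither. They therefore do not show what the call would be without that pair.

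A brain stood far from the others of its genotype in 2 of 28 groups of values, and chance flags about 1 group in 20. They were wild-type 6 for Syt3 (92916_at), at 89.4 against 125.9 to 146.0 in the other wild-type brains, and wild-type 5 for Cplx1, at 442.8 against 223.6 to 298.8.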

How the results depend on the processing

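No paired analysis was possible because the labels give mice of the 2 genotypes no shared replicate numbers. With 1 mouse left out, the number of member probe sets past the threshold ran from 0 to 10 for genotype (10 without wild-type 5), 0 to 1 for sex and 5 to 10 for the interaction. The median over the 10 genes ran from 0.63 to 1.13, from -0.74 to -0.26 and from -1.81 to -1.61. With B4 numbers only, 1 member probe set passed for genotype, and the median was -0.83 for sex and -1.59 for the interaction. Median centring, which moved the median of all tested probe sets from 0.03 to -0.15 for genotype, gave medians of 0.73, -0.31 and -1.50 for genotype, sex and interaction. Age as a covariate gave 0.75 for genotype and -0.36 for sex, no covariate 0.77 and -0.24, and the filter at the 60th percentile -0.34 for sex. Without both male null brains the medians were 0.039 for genotype and 0.19 for sex, Syt3 (102116_f_at) turned to 0.21 and Cplx1 to -0.29. With the Gapdh ratio they were -0.10 for genotype, 0.072 for sex and -1.05 for the interaction, of which 0 passed. The genotype difference turned to -0.44 for Vamp1, 0.27 for Syt3 (102116_f_at), -0.24 for Nsf, -0.15 for Stx1a, -0.65 for Cplx1 and -0.12 for Syp, and the interaction of Dnm1 (103030_at) to -0.39. Over all tested probe sets the genotype count was 2, and 29 with B4 numbers only, 9 without null 5, 199 without wild-type 3 and 873 without wild-type 5, and 0 to 3 in the other settings run. The interaction count was 1187, and 648 with B4 numbers only, 497 without wild-type 5, 649 without null 1, 462 without null 2 and 0 with the Gapdh ratio. The cause of these changes was not tested. The direction of the genotype difference was the same in every member probe set under quantile normalization, median centring and both other floors. The low signals of Vamp1 limit the size of its fold.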
